A study of Mus musculus with 18 samples.

Results

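The 8 genes described here set or follow the choice between the CD4 and CD8 T cell lineages: the coreceptors Cd4, Cd8a and Cd8b1, and the lineage regulators Zbtb7b, Runx3, Runx1, Tox and Satb1. They were chosen by name for that role, 8 of the 55487 genes in the count table, and not by any measured value. The data are 18 libraries of mouse spleen T cells, 3 for each of 6 groups. The groups cross 3 sort labels (CD8+, CD4+ and Treg) with 2 genotypes, Foxp3 YFP/cre mice (WT) and Foxp3 YFP/cre mice that also carry Ebi3 -/- (KO). Every group, WT included, carries the Foxp3 YFP/cre allele, which places a YFP-Cre fusion under the Foxp3 gene, and the cells of every group were cultured alike: anti-CD3 at 2 µg/ml coated on the plate, anti-CD28 at the same dose and 10 ng/ml of IL-2, over 72 h. The age of the animals is not given, and no label says that replicates are different animals or cultures. The p-values therefore measure the spread between these libraries, which may be technical. Libraries were made from 500 ng of RNA with a kit that reads the 3' end of polyadenylated RNA and adds molecular identifiers. A level below is in CPM, the counts after scaling to library size with TMM factors, and levels in CPM are compared between libraries. Where counts of a pair of genes are set side by side or given as a share, the result is how that balance differs between libraries, since the tag yield of each gene is not known.

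CD4 and CD8 are the coreceptors of the T cell receptor. CD4 binds MHC class II and marks helper and regulatory cells, CD8 binds MHC class I and marks cytotoxic cells, and both bring the kinase Lck to the receptor. In the thymus a cell that carries both coreceptors keeps one of them. Zbtb7b (also called ThPOK) is required for the CD4 fate and represses the CD8 genes, while Runx3 is needed for the CD8 fate, silences Cd4 and supports Cd8a. Runx1, Tox and Satb1 act earlier or more broadly: Runx1 helps to silence Cd4 in immature thymocytes, Tox is required for CD4 lineage development, and Satb1 is a chromatin organiser that acts on several of these loci.

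Total counts were 841892 to 1089003 in the 6 libraries labelled Treg and 1358671 to 2255950 in the 12 CD4 and CD8 libraries, and a floor of 3 counts corresponded to 1.33 to 3.56 CPM. All 8 genes passed the filter on low counts. Ebi3, the deleted gene, was counted in every library: in the CD4 libraries it was at 38.7 to 60.5 CPM in WT and 20.6 to 26.1 CPM in KO, but in the CD8 and Treg-labelled libraries the genotypes overlapped (24.2 to 34 CPM over both CD8 genotypes and 24.6 to 40.1 CPM over both Treg genotypes). Whether the 3' tags lie inside the deleted part of Ebi3 is not stated, so this does not check the genotype labels. Foxp3, which defines regulatory T cells, had 0 or 1 count in every library, including the 6 labelled Treg. Of the other 3 Treg markers, Il2ra averaged 130 CPM there against 588 CPM in CD4 and 785 CPM in CD8 libraries, and Ctla4 21.9 CPM against 53.9 and 47.6 CPM. Ikzf2 went the other way, at 54.7 CPM against 18.4 CPM in CD4 (log2 difference 1.54, adjusted p = 3.59e-05, edgeR), with 54 CPM in CD8. The Treg label is not borne out by the counts of its defining marker Foxp3. Whether the Foxp3 YFP/cre allele, carried by every group, changes the 3' tags of Foxp3 is not stated, so these counts cannot decide the label. The Treg-labelled libraries are called by their label only. The 9 B cell markers summed to 8110 to 8650 CPM in the Treg-labelled libraries, with wider ranges in the CD4 libraries (5100 to 10300 CPM) and the CD8 libraries (4380 to 9090 CPM). Under the Treg label 5 of the 9 were higher and 0 lower than in CD4 (median log2 difference 0.42). Of all genes tested, 33.3% were higher and 25.2% lower in that comparison. Against CD8, 6 of the 9 were higher and 0 lower (median 0.46), where 33.9% of all genes were higher and 26.2% lower. The part of B cell RNA in the Treg comparisons below was not tested.

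Among the Treg-labelled libraries, the pair of WT replicates 1 and 2 and the pair of KO replicates 1 and 3 differed by no more than sampling noise (0.923 and 0.914 chi-square units a gene), and each pair is counted as 1 sample in a mean ± SD (n = 2). Percentages of a mean, and the lines in the plots, average all libraries. Across genotypes, 4 of the 9 Treg-labelled pairs also differed by less than that noise, whereas no pair within the CD4 or within the CD8 libraries did. No member's call changed when those within-label pairs were summed.

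The coreceptor transcripts separated the CD4 and CD8 libraries, which is a check of the sort and not a finding, since the cells were sorted on these proteins. Cd4 (ENSMUSG00000023274, chromosome 6, 124864692 to 124888221, minus strand, GRCm38) had 0, 1 and 1 counts in the 3 CD8 WT libraries and 0, 0 and 1 in the 3 CD8 KO libraries. It was at 103, 127 and 100 CPM in CD4 WT and at 157, 107 and 130 CPM in CD4 KO. Summed over 6 libraries each, 1422 counts in CD4 stood against 3 in CD8, a ratio of 486 after scaling (exact 95% interval 166 to 2360, counting error only).

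Cd8a, which encodes the CD8 alpha chain (ENSMUSG00000053977, chromosome 6, 71373427 to 71379173, plus strand), was at 244, 219 and 168 CPM in CD8 WT and at 160, 181 and 143 CPM in CD8 KO. In the CD4 libraries it had 0, 1 and 3 counts in WT and 1, 2 and 2 in KO, so 2201 counts stood against 9 (ratio 238, interval 125 to 522). Cd8b1, the CD8 beta chain, lies 35932 bases away on the same strand (ENSMUSG00000053044, chromosome 6, 71322788 to 71337494). It was at 182, 192 and 129 CPM in CD8 WT and at 128, 150 and 137 CPM in CD8 KO.

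The balance of the CD8 chains differed between the CD8 and the CD4 libraries. Cd8b1 had 2, 14 and 13 counts in CD4 WT and 11, 13 and 25 in CD4 KO, 78 in all, where Cd8a had 9. The CD8 to CD4 ratio was 22.7 for Cd8b1 (interval 18.1 to 28.9), and this interval lies wholly below that for Cd8a. Cd8b1 made up 45.2% of the summed Cd8a and Cd8b1 counts in the CD8 libraries (exact 95% interval 43.7 to 46.8%), and 89.7% in the CD4 libraries (81.3 to 95.2%). In single CD8 libraries the share was 42.7% to 49%, and in single CD4 libraries it was 81.2% to 100%. The 2 ranges do not overlap, although the 6 CD4 libraries rest on 2 to 27 counts each. The source of these counts was not tested.

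**Figure D1:**
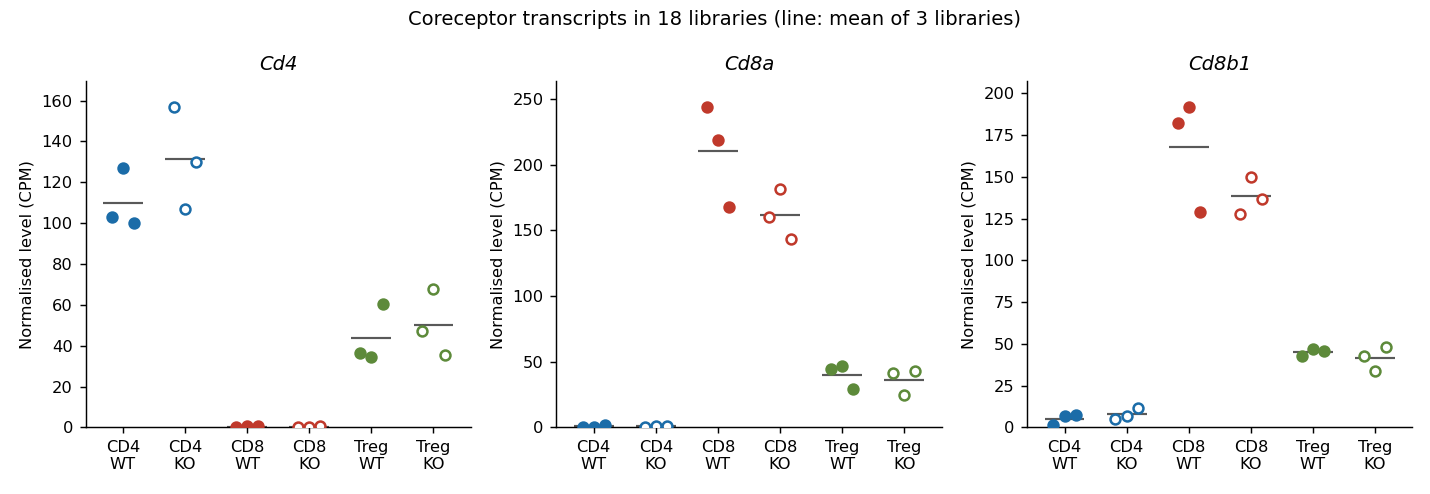
Levels of Cd4, Cd8a and Cd8b1 (CPM, linear axis) in each of 18 libraries, grouped by sort label and genotype, with filled points for WT, open points for KO and a line at the mean of 3 libraries. Cd4 is at 0.509 CPM or less in the CD8 libraries and Cd8a at 1.69 CPM or less in the CD4 libraries, while the Treg-labelled libraries hold all 3 transcripts.

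The Treg-labelled libraries held both coreceptors. Cd4 was at 36.3, 34.4 and 60.2 CPM in the WT libraries and at 47.4, 68 and 35.6 CPM in the KO libraries, 39% of the mean in the CD4 libraries. Cd8a was at 44.1, 46.7 and 29.6 CPM in WT and at 41.3, 24.9 and 43 CPM in KO, 20.6% of the mean in the CD8 libraries. Cd8b1 was at 42.8, 46.7 and 45.9 CPM in WT and at 42.6, 33.5 and 47.9 CPM in KO, 28.2% of that mean. With pairs merged, Cd4 was 47.8 ± 17.6 CPM in WT and 54.7 ± 18.7 CPM in KO (SD, n = 2 each), and Cd8a was 37.5 ± 11.1 and 33.5 ± 12.2 CPM (SD, n = 2 each). All 6 Treg-labelled libraries were below every CD4 library for Cd4 and above every CD4 library for Cd8a and Cd8b1. In bulk libraries, fewer cells of a type and less RNA per cell cannot be told apart, and neither can cells that carry both coreceptors and a mixture of cells that carry one each.

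The balance of the coreceptors varied within the Treg label and did not follow genotype. Cd4 made up 45.2%, 42.4% and 67% of the summed Cd4 and Cd8a counts in WT replicates 1 to 3 and 53.4%, 73.2% and 45.3% in KO replicates 1 to 3. WT replicate 3 and KO replicate 2 had the highest Cd4 and the lowest Cd8a of the 6, and their exact 95% intervals (56.6 to 76.4% and 63.2 to 81.7%) overlap each other. Over all genes the difference between these libraries was also within sampling noise (0.869 chi-square units a gene). The same held for WT replicate 3 against KO replicate 3 (0.960), whose Cd4 shares were 67% and 45.3%. A pair within that noise need not share the coreceptor balance. Over all 6 libraries Cd4 was 56.6% of the sum (51.9 to 61.2%), against 99.4% in CD4 and 0.136% in CD8 libraries. Cd8b1 was 53.5% of the summed Cd8a and Cd8b1 counts (48.7 to 58.3%). The 10 myeloid and dendritic markers, of which spleen dendritic cells can carry Cd8a or Cd4, summed to 57.7 to 74.2 CPM in these libraries against 23.4 to 46.9 CPM in the other 12. Their part in the coreceptor levels was not tested.

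**Figure D2:**
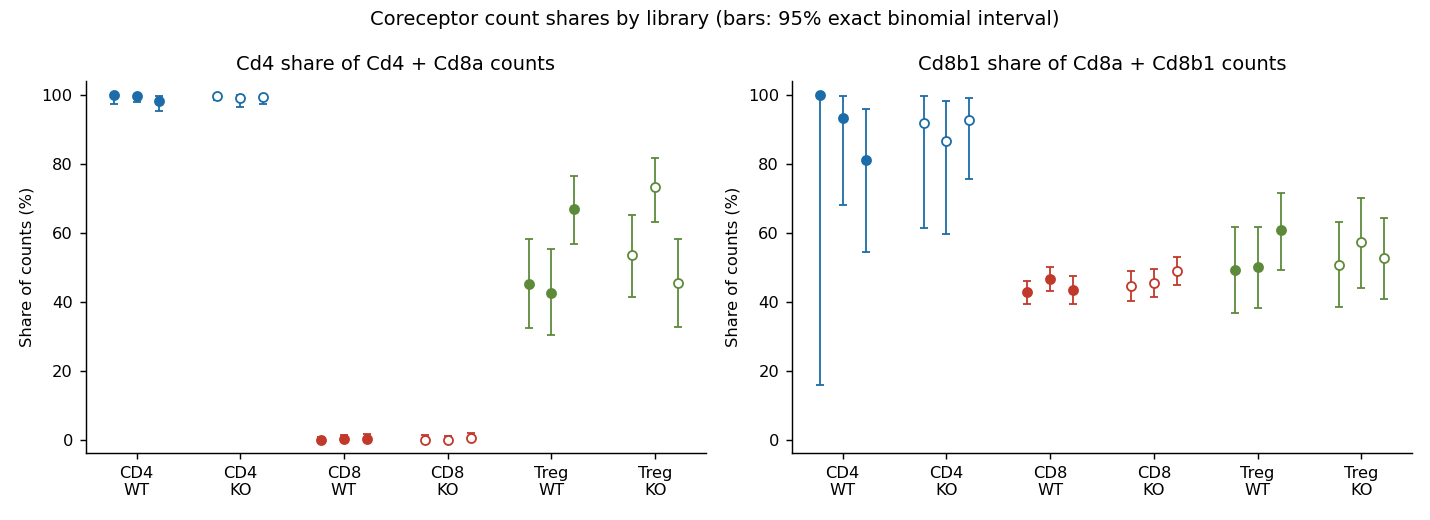
Share of counts (%) in each library, with exact 95% binomial intervals that cover counting error only: Cd4 out of Cd4 plus Cd8a (left panel) and Cd8b1 out of Cd8a plus Cd8b1 (right panel). Filled points are WT and open points are KO. The Treg-labelled libraries lie at 42.4% to 73.2% in the left panel, and the CD4 libraries lie at 81.2% or more in the right panel on few counts.

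Between the CD8 and CD4 libraries, 4 of the 5 regulators differed and Satb1 did not pass the test. With the coreceptors, 7 of the 8 genes passed (3 higher and 4 lower in CD8), where 5.92% of the 12693 genes tested passed (3.25% higher and 2.68% lower). Runx3 was the regulator that was higher in CD8; Runx1, Tox and Zbtb7b were lower. The 2 genotypes were averaged in this comparison.

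Runx3 (ENSMUSG00000070691, chromosome 4, 135120652 to 135177990, plus strand), the CD8 lineage factor, was at 345, 326 and 258 CPM in CD8 WT and at 278, 296 and 244 CPM in CD8 KO. The CD4 libraries were at 149, 174 and 159 CPM in WT and at 218, 163 and 198 CPM in KO. All 6 CD8 libraries were above all 6 CD4 libraries, with a log2 difference of 0.72 (SE 0.08, adjusted p = 7.38e-08, edgeR). The CD4 mean was 60.8% of the CD8 mean. Runx3 is also known to be induced in activated helper cells that make interferon-gamma. The gene of that cytokine, Ifng, averaged 14.5 CPM in the CD4 libraries and 524 CPM in the CD8 libraries. Whether such cells add to the Runx3 level in CD4 was not tested.

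Runx1 (ENSMUSG00000022952, chromosome 16, 92601466 to 92826149, minus strand) showed the opposite order and the largest estimated difference of the 5 regulators. It was at 12, 15.8 and 17.3 CPM in CD8 WT and at 13.5, 18.5 and 21.1 CPM in CD8 KO. The CD4 libraries were at 41.5, 58 and 50.1 CPM in WT and at 47.7, 51.7 and 65 CPM in KO. Every CD8 library was below every CD4 library, and Runx1 in CD8 averaged 31.3% of its CD4 mean (log2 difference -1.68, SE 0.13, adjusted p = 2.36e-11, edgeR). Including the 3 coreceptors, 5 of the 8 genes had CD8 and CD4 libraries that did not overlap, against 2.95% of all genes tested.

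Zbtb7b (ENSMUSG00000028042, chromosome 3, 89377644 to 89394776, minus strand), the CD4 lineage factor, was counted at 34.6, 43.3 and 32.6 CPM in CD8 WT and at 34.7, 29.9 and 30.7 CPM in CD8 KO. CD4 WT libraries were at 42.3, 53.6 and 55.1 CPM and CD4 KO libraries at 54.7, 50.7 and 41.6 CPM. The libraries overlapped, and the CD8 mean was 69% of the CD4 mean (log2 difference -0.55, SE 0.11, adjusted p = 0.00111, edgeR). An antisense gene, Gm15417 (174 counts in all, against 1323 for Zbtb7b), overlaps Zbtb7b from base 89391850 on. This stretch is at the start of both genes, and the annotated 3' end of each lies outside it. The strand setting of the counting is not given, so only reads inside that stretch could be assigned to the wrong gene of the pair.

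Tox (ENSMUSG00000041272, chromosome 4, 6686353 to 6991557, minus strand) had 577 counts in all, so its values are the least precise of the regulators. It was at 12, 20.4 and 7.42 CPM in CD8 WT and at 5.96, 7.73 and 2.87 CPM in CD8 KO, where the libraries hold 6 to 40 counts. CD4 WT libraries were at 14.6, 28 and 28.7 CPM and CD4 KO libraries at 27.5, 16.7 and 25.3 CPM. The libraries overlapped and the log2 difference was -1.48 (SE 0.22, adjusted p = 2.43e-05, edgeR).

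Satb1 (ENSMUSG00000023927, chromosome 17, 51736187 to 51833290, minus strand) was at 776, 803 and 676 CPM in CD8 WT and at 654, 756 and 492 CPM in CD8 KO. CD4 WT libraries were at 431, 704 and 707 CPM and CD4 KO libraries at 733, 810 and 883 CPM. The log2 difference was -0.03 (SE 0.12, adjusted p = 0.983, edgeR). Satb1 shares its locus with 5 genes on the same strand, which hold 91 to 2426 counts each, so some of its reads may be counted elsewhere; with these genes added, CD8 libraries summed to 690 to 1040 CPM and CD4 libraries to 621 to 1170 CPM.

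**Figure D3:**
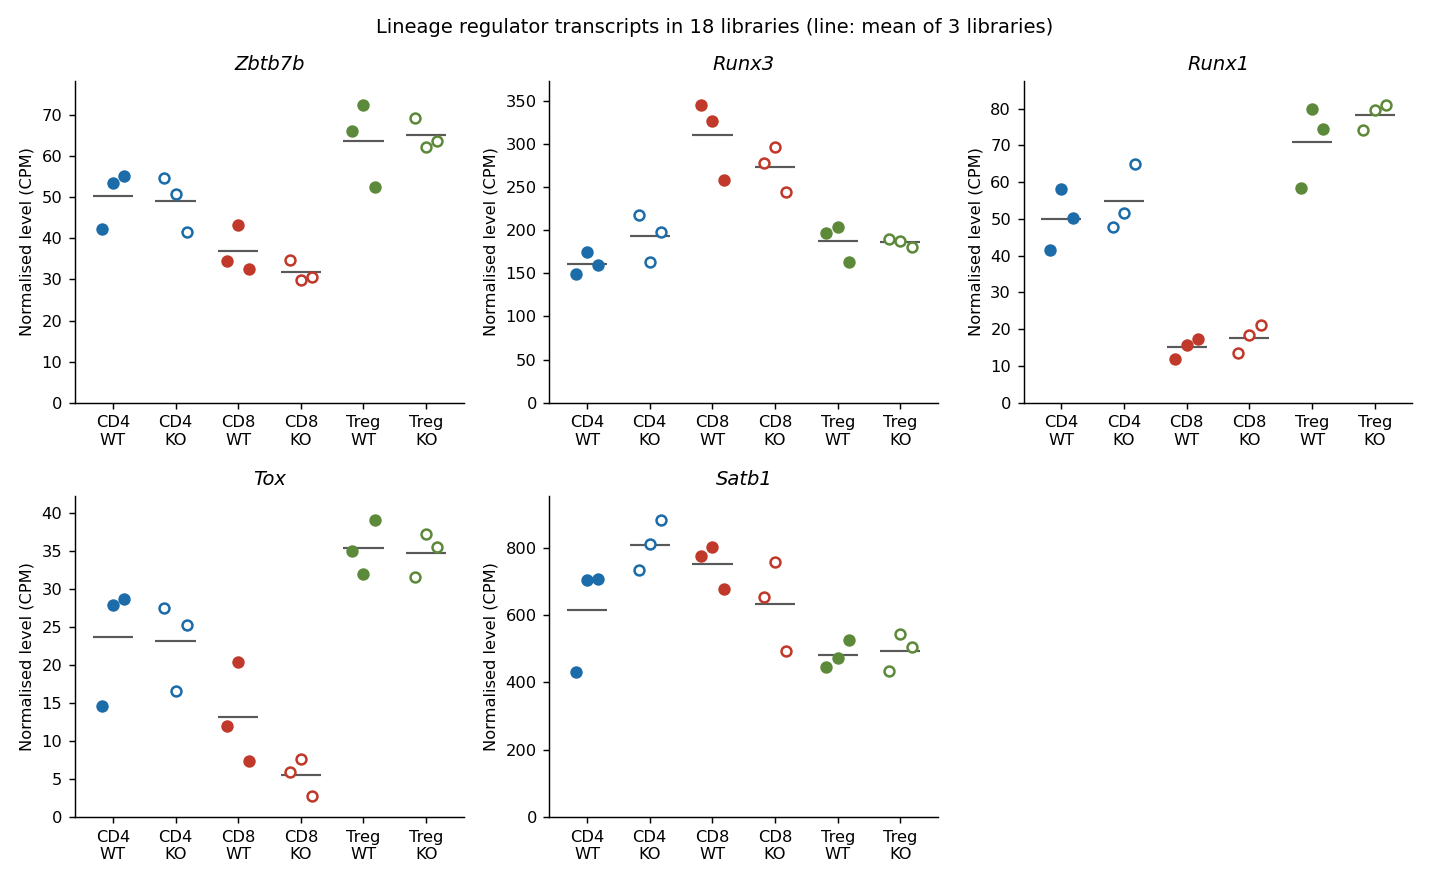
Levels of Zbtb7b, Runx3, Runx1, Tox and Satb1 (CPM, linear axes that differ between panels) in each of 18 libraries, with filled points for WT, open points for KO and a line at the mean of 3 libraries. The CD8 libraries lie above the CD4 libraries for Runx3 (244 CPM or more against 218 CPM or less) and below them for Runx1 (21.1 CPM or less against 41.5 CPM or more).

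Runx1 and Runx3 moved in opposite directions between the lineages, and their promoters share a stretch of letters. Runx proteins bind the letters ACCACA. RefSeq promoters (GRCm38.p6, 250 bases before to 50 after a start) were at hand for Cd8a, Zbtb7b, Runx3, Runx1 and Satb1; Cd4, Cd8b1 and Tox are named only. ACCACA on either strand is in 16.8% of the 32851 promoters. The stretch that holds both copies in the Runx3 promoter, AACCACAGAACCACA, was read from there and searched for on either strand of all promoters. It is in 4 of them (0.0122%): that of Runx3, by construction, those of Runx1 and Runx2, and that of Gm16225, whose window overlaps the one of Runx3 on the other strand. The tandem copies are printed for comparison, from chr4:135120503-135120532 on the plus strand and chr16:92826025-92826054 on the minus strand, with each ACCACA in capitals.
Runx3: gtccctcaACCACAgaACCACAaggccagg
Runx1: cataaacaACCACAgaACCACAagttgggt
In Runx3 the copies start 134 and 126 bases before the start site, and in Runx1 they start at bases 29 and 37 of the transcript. A match describes the letters and is no evidence of binding in these cells, and 3' tags do not show which promoter was used.

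The 250 bases before the start are shown for Cd8a, the coreceptor gene with an entry (chr6:71373177-71373426, plus strand), and for the start of Zbtb7b that has a match (chr3:89387672-89387921, minus strand), with the match in capitals.
Cd8a: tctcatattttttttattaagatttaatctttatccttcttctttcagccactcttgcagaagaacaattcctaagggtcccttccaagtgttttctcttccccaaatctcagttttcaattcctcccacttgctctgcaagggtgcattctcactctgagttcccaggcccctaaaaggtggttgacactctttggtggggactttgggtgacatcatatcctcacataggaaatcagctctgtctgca
Zbtb7b: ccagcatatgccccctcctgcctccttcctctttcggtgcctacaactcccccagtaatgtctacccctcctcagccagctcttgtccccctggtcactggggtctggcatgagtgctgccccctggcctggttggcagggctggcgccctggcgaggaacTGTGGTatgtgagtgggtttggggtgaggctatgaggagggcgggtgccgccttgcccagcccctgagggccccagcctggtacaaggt
The single match in Zbtb7b starts 89 bases before the start site and reads TGTGGT, the letters of the other strand. The Cd8a window, the other start of Zbtb7b, the second starts of Runx3 and Runx1 and the 5 starts of Satb1 hold none, which says only that these letters are not in those windows.

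Set against the CD4 libraries, 7 of the 8 genes differed in the Treg-labelled libraries (5 higher and 2 lower), and set against the CD8 libraries 8 of 8 differed (4 higher and 4 lower). These counts are to be read against 58.4% of all genes tested in the first comparison (33.3% higher, 25.2% lower) and 60.1% in the second (33.9% higher, 26.2% lower), so most genes differed between these libraries and the rest. Libraries did not overlap for 4 of the 8 genes against CD4 and for 7 of 8 against CD8, where 35.6% and 38.2% of all genes did not. The 2 comparisons share the Treg-labelled libraries. The Treg-labelled libraries were at the far end of the order for 3 regulators: Zbtb7b, Runx1 and Tox were lowest in CD8, higher in CD4 and highest under the Treg label.

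Zbtb7b was at 66.1, 72.5 and 52.6 CPM in the WT and 69.3, 62.2 and 63.8 CPM in the KO libraries labelled Treg, a log2 difference of 0.36 from CD4 (SE 0.12, adjusted p = 0.00854, edgeR) with overlapping libraries. Without the filter on low counts that difference was 0.20 and did not pass (adjusted p = 0.201, edgeR). Against CD8 it was 0.90 (SE 0.12, adjusted p = 1.09e-07, edgeR). The overlapping Gm15417 moved the same way, at 11.6 CPM on average in the Treg-labelled libraries against 5.14 CPM in CD4 and 4.82 CPM in CD8.

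Runx1 was at 58.3, 79.9 and 74.5 CPM in WT and at 74.2, 79.5 and 81 CPM in KO. It differed from CD4 by 0.51 (SE 0.12, adjusted p = 0.000513, edgeR) and from CD8 by 2.18 on the log2 scale (SE 0.14, adjusted p = 2.09e-14, edgeR), and all 6 libraries were above all 6 CD8 libraries. Tox, at 35, 32 and 39.2 CPM in WT and 31.6, 37.3 and 35.6 CPM in KO, was likewise above every CD8 library. Its log2 difference was 2.04 from CD8 (SE 0.23, adjusted p = 1.66e-08, edgeR) and 0.56 from CD4 (SE 0.20, adjusted p = 0.0161, edgeR). Without Treg-labelled WT replicate 3 the latter was 0.51 and missed the threshold (adjusted p = 0.0518, edgeR).

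Runx3 in the Treg-labelled libraries, at 196, 203 and 163 CPM in WT and 190, 187 and 180 CPM in KO, lay within the CD4 range (log2 difference 0.07, SE 0.09, adjusted p = 0.489, edgeR) and below every CD8 library (-0.64, SE 0.09, adjusted p = 1.08e-07, edgeR). Satb1, at 446, 472 and 526 CPM in WT and 434, 544 and 506 CPM in KO, was lower than in CD4 (-0.53, SE 0.13, adjusted p = 0.00173, edgeR) and in CD8 (-0.50, SE 0.13, adjusted p = 0.00268, edgeR). The 6 genes of the T cell receptor and CD3 complex summed to 919 to 1740 CPM in the CD8 libraries, 879 to 1530 CPM in CD4 libraries and 785 to 1160 CPM in those labelled Treg. Scaled to these counts, the difference of Satb1 was -0.17 from CD4 (adjusted p = 0.322, edgeR) and -0.08 from CD8 (adjusted p = 0.661, edgeR). On that scale Runx3 was 0.44 above CD4 (adjusted p = 0.0154, edgeR) and -0.21 from CD8 (adjusted p = 0.24, edgeR), and the median of all genes was 0.414 and 0.465.

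**Figure D4:**
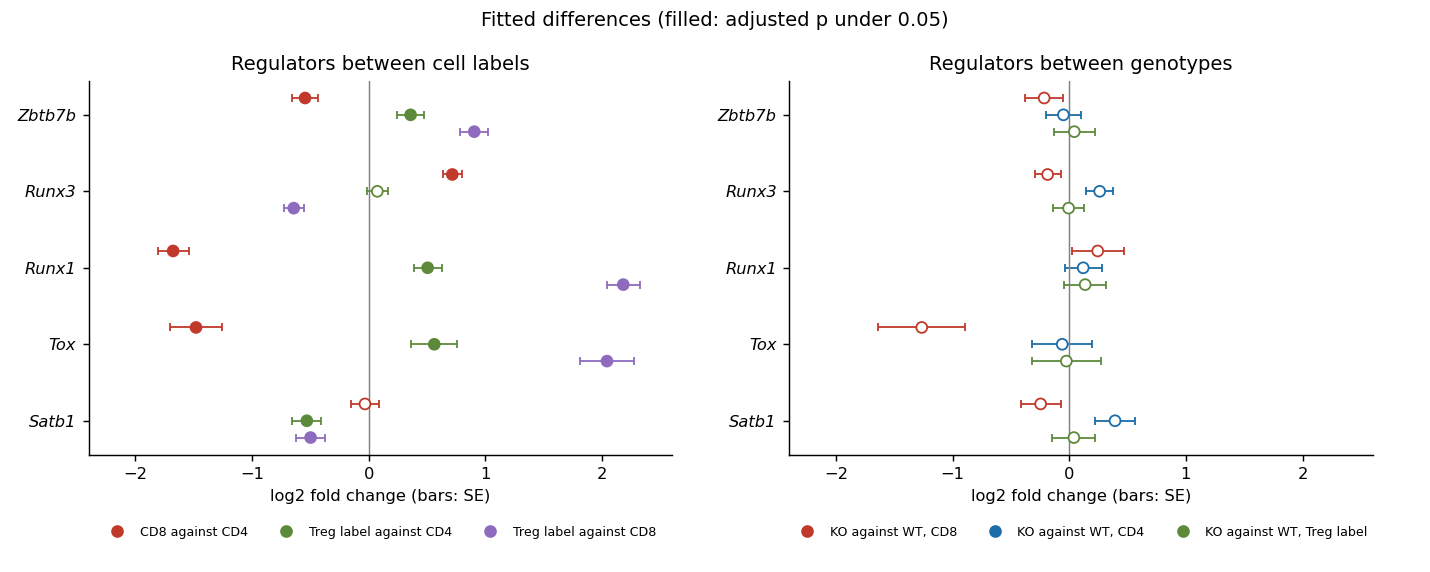
Fitted log2 fold changes of the 5 regulators with SE bars, between sort labels (left panel) and between genotypes within a label (right panel); filled points have an adjusted p under 0.05. On the left, Runx1 has the largest difference in CD8 against CD4 (-1.68) and in Treg label against CD8 (2.18). CD8 comes first in the former and second in the latter, so the signs differ. No point on the right is filled.

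Between genotypes none of the 8 genes passed the test in any sort label. In the CD8 libraries 0 of 8 passed, where 0.165% of all genes tested (21 genes) did. Of the 8, 2 had an unadjusted p under 0.05. DESeq2 and limma-voom also called 0, but DESeq2 gave Tox no adjusted p and so did not judge it. For 0 of the 8 were the WT and KO libraries apart, against 17.4% of all genes. Tox had the largest difference, -1.27 on the log2 scale (SE 0.37, unadjusted p = 0.00208, adjusted p = 0.106, edgeR), with 15 to 40 counts in WT and 6 to 15 in KO. Cd8a was at -0.38 (SE 0.14, unadjusted p = 0.0103, adjusted p = 0.175, edgeR), and WT replicate 3 (168 CPM) lay below KO replicate 2 (181 CPM). Without WT replicate 3 both passed, Tox at -1.56 (adjusted p = 0.0115, edgeR) and Cd8a at -0.52 (adjusted p = 0.0248, edgeR), and without the filter on low counts Tox passed (adjusted p = 0.00708, edgeR). Leaving out 1 CD8 library also moved the number of all genes that passed, to between 0 and 646 from 21. The calls of Tox and Cd8a in such a fit are to be read against that range. The other genes ranged from -0.73 for Cd4, at 0 or 1 count, to 0.24 for Runx1.

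Marker sums leaned with genotype in the CD8 libraries, but the ranges of WT and KO overlapped for each list. The 9 B cell markers summed to 4380 to 7190 CPM in WT and 6670 to 9090 CPM in KO, the 6 erythroid markers to 632 to 1050 and 991 to 1480 CPM, and the 6 T cell receptor and CD3 genes to 1190 to 1740 and 919 to 1280 CPM. No gene of these 3 lists was at 0, and no gene of any list passed the test. WT replicate 3 had the lowest T cell receptor and CD3 sum of its group, 1189 CPM. Per 1000 counts of those 6 genes, Cd8a was at 156, 126 and 141 counts in WT and at 129, 142 and 156 in KO, so the genotypes overlapped. The fitted difference on this scale, chosen after the data were seen, was 0.01 for Cd8a (adjusted p = 0.999, edgeR) and -0.86 for Tox (adjusted p = 0.13, edgeR), with the median of all genes at 0.378. The part of B cell and erythroid RNA in these values was not tested.

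**Figure D5:**
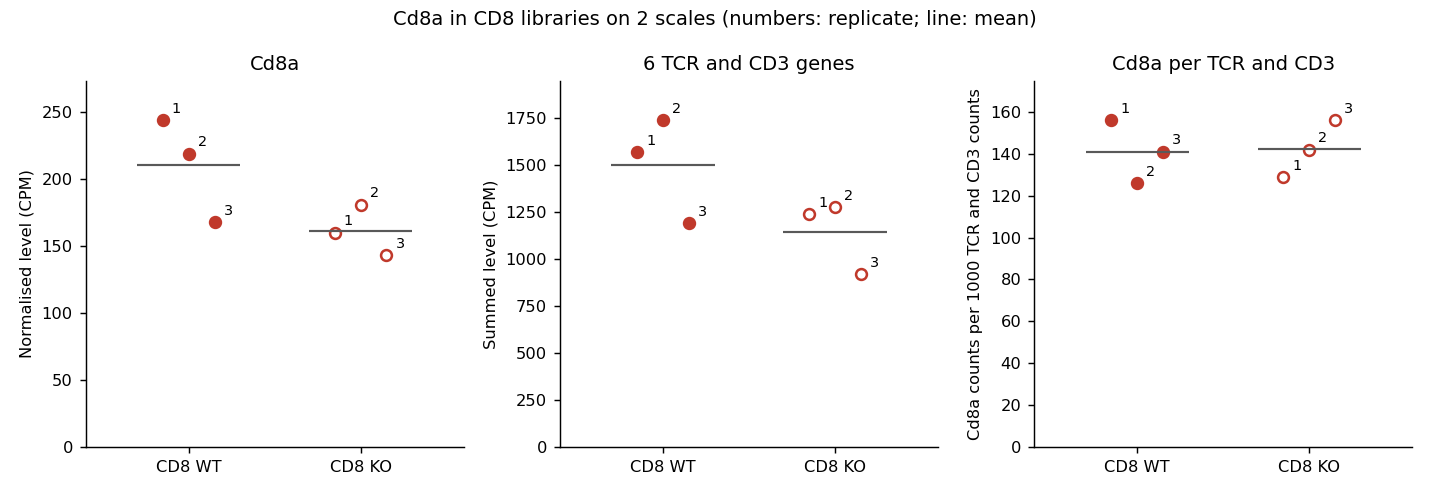
Cd8a in the 6 CD8 libraries as a level (CPM, left), the summed level of 6 T cell receptor and CD3 genes (CPM, middle) and Cd8a counts per 1000 counts of those genes (right); points are numbered by replicate, with filled points for WT, open points for KO and a line at the group mean. The WT mean is 210 CPM against 161 CPM in KO on the left, and 141 against 142 on the right.

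In the CD4 libraries 0 of 8 genes passed, as did 0% of all genes tested, and 2 of the 8 had an unadjusted p under 0.05; DESeq2 and limma-voom also called 0 of the 8. Satb1 was at 0.39 (SE 0.17, unadjusted p = 0.0362, adjusted p = 0.666, edgeR), and its KO libraries (733 to 883 CPM) were above its WT libraries (431 to 707 CPM), as was so in one direction or the other for 9.60% of all genes. WT replicate 1 stood apart at 431 CPM, against 704 and 707 CPM in WT replicates 2 and 3. Leaving out 1 CD4 library gave 0.19 to 0.51 for Satb1. Runx3 was at 0.26 (SE 0.12, unadjusted p = 0.0341, adjusted p = 0.666, edgeR) and Cd4 at 0.25 (SE 0.16, adjusted p = 0.742, edgeR). Here the marker sums leaned the other way, again with overlapping ranges. B cell markers summed to 5780 to 10300 CPM in WT and 5100 to 6970 CPM in KO. The T cell receptor and CD3 genes summed to 879 to 1320 and 1230 to 1530 CPM. Scaled to the T cell receptor and CD3 counts, Satb1 was at 0.15, Runx3 at -0.02 and Cd4 at -0.03, with the median of all genes at -0.27.

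In the Treg-labelled libraries 0 of 8 genes passed and 0 had an unadjusted p under 0.05, with differences of -0.15 to 0.20 (adjusted p = 0.999 for each, edgeR), and 0% of all genes passed. Genotypes were apart for 0 of the 8, against 9.40% of all genes. The difference of the genotype effect between CD8 and CD4 libraries was also tested, and 0 of 8 genes passed, with 0% of all genes. In that test 3 genes had an unadjusted p under 0.05: Runx3 at -0.45 (SE 0.16, adjusted p = 0.146, edgeR), Tox at -1.20 (SE 0.46, adjusted p = 0.165, edgeR) and Satb1 at -0.64 (SE 0.24, adjusted p = 0.183, edgeR). Without CD8 WT replicate 3, Runx3 (-0.57, adjusted p = 0.0268, edgeR) and Tox (-1.50, adjusted p = 0.0292, edgeR) passed, and without the filter on low counts Satb1 did (adjusted p = 0.00642, edgeR). These calls are to be read against all genes, of which 0 to 859 passed when 1 CD4 or CD8 library was left out. Scaled to the T cell receptor and CD3 counts, Runx3 was at 0.23 and Satb1 at -0.03, with the median of all genes at 0.654.

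Other genes of the pathway were taken from lists that do not hold the 8 members. Of 30 partners, repressors and chromatin factors that act on the coreceptor genes, 29 were tested: 1 was higher and 6 were lower in CD8 than in CD4, where 3.25% of all genes were higher and 2.68% lower. Their median log2 difference was -0.03, and that of all genes was 0. The 4 of lowest p, all lower in CD8, were Ets1 (-0.47), a factor required for T cell development, Lef1 (-0.62), an HMG factor that acts with Tcf7, Id3 (-0.52), an inhibitor of E proteins, and Bcl11b (-0.60), a factor of T cell identity. The gene that was higher in CD8 was Runx2 (0.86, SE 0.24, adjusted p = 0.0253, edgeR), named after its value was seen.

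Of 20 genes of coreceptor and T cell receptor signalling, 1 was higher and 4 were lower in CD8 (median -0.15), against the same shares of all genes. Those of lowest p were Cd5 (-0.83) and Cd6 (-0.43), receptors that restrain signalling, the adaptor Lcp2 (-0.41), and Themis (0.69), which acts in thymocyte selection. The lineage programs differed more. Of 16 helper genes 14 were tested, 0 were higher and 7 lower in CD8 (median -0.49), among them Cd40lg, a ligand that activates B cells (0.0859 against 29.5 CPM), Izumo1r (-1.80), the ganglioside synthase St8sia1 (-1.99) and the growth factor Il2 (-2.08). Of 19 cytotoxic genes 15 were tested, 12 were higher and 0 lower (median 3.07), led by the chemokine Xcl1 (68.3 against 0.403 CPM), the pore protein Prf1 (5.48), the adhesion receptor Crtam (3.77) and the factor Eomes (2.57).

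Under the Treg label, the counts of these lists are to be read against the share of all genes tested that passed, 33.3% higher and 25.2% lower than CD4, and 33.9% higher and 26.2% lower than CD8. Of the 15 cytotoxic genes tested, 9 were higher and 4 lower than in CD4 (median 0.83), and 1 was higher and 14 lower than in CD8 (median -2.59). The sum of all 19, 241 to 312 CPM, lay within the range of the CD4 libraries (192 to 444 CPM) and below every CD8 library (2150 to 3090 CPM). This sum leans on Gzmb, which averaged 66.2 CPM under the Treg label, 178 CPM in CD4 and 1240 CPM in CD8. It therefore does not show that the cytotoxic genes were level with CD4. Of the 14 helper genes tested, 2 were higher and 8 lower than in CD4, and 6 were higher and 5 lower than in CD8. The sum of all 16, 610 to 738 CPM, was below every CD4 library (1090 to 1730 CPM) and every CD8 library (853 to 1310 CPM). Of the 20 signalling genes, 2 were higher and 10 lower than in either. The number that passed in either direction was near that of all genes (58.4% and 60.1%), but the list leaned lower. Its median was -0.40 against CD4 and -0.27 against CD8, where the median of all genes was 0.08 and 0.07.

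The genes most like each member over the 18 libraries were ranked by the root mean square difference of centred log2 levels, a measure that follows the sort labels. For Cd4, whose own SD was 2.74, the nearest were Cd40lg (0.828), Ly6c1 (0.902) and Tbc1d4 (1.36). Ly6c1, a surface antigen, averaged 0.418 CPM in CD8, 42.1 in CD4 and 19.6 in the Treg-labelled libraries. For Cd8a they were Prf1 (0.925), Cd8b1 (0.959) and the cytokine Ifng (1.23), and Prf1 averaged 116, 2.56 and 19.9 CPM.

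The regulators have narrower patterns, and the genes nearest to them lie closer. For Zbtb7b (own SD 0.398) they were Gpr174 (0.179), Kdm3b (0.188) and Skil (0.195), of which Gpr174, a receptor for lysophosphatidylserine, averaged 62.8, 91.6 and 125 CPM in CD8, CD4 and the Treg label. For Runx3 (own SD 0.357) they were Riox2 (0.158), Rrp12 (0.169) and Tnfrsf1b (0.183), of which Tnfrsf1b, a receptor for tumour necrosis factor, averaged 45.5, 31.1 and 34.7 CPM.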

How the data were processed

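Mouse T cell RNA was measured in 18 libraries. The authors deposited unnormalised counts for each Ensembl gene. The tools named, per the submitters' processing notes, are STAR 2.5.3a, Subread 2.0.0 with featureCounts, cutadapt 2.10, FastQC and UMI-tools 1.0.0, and the build is GRCm38. The sources used here do not give the annotation release, the strand setting or the handling of reads with several alignments. Symbols and positions came from GENCODE M21 (55141 of 55487 genes matched), and 0 columns were left unused. In R 4.3.3, genes were kept by filterByExpr (minimum count 10, 12693 genes), scaled by TMM and fitted with edgeR 4.0.16 (glmQLFit, robust, 6 group means over 18 libraries, 12 residual degrees of freedom), with Benjamini-Hochberg adjustment over all genes and a threshold of 0.05. The fit was tested on simulated data. Alternatives were RLE factors, DESeq2 1.42.0, limma-voom (limma 3.58.1), no filter, fewer libraries, summed Treg pairs, a replicate block and leaving out each replicate; the fit of 12 CD4 and CD8 libraries and the scaling to T cell receptor and CD3 counts were added after seeing the data. Intervals (95%, exact) and floors cover counting error only. The members and lists were chosen with earlier results of these data known. All members are named; from each list up to 4 genes of lowest p in CD8 against CD4, and for 4 members the 3 genes of nearest pattern (not predicted genes, mean log2 CPM of 3 or more, prior count 2).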

Additional observations from a re-analysis of the deposited data

How the results depend on the processing

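Of the 8 members, 7 were called in CD8 against CD4 under every alternative. Against CD4, the Treg label had 7, and 6 without the filter or without Treg WT replicate 3; against CD8 it had 8, and 6 with the T cell receptor scaling. KO against WT in CD8 went from 0 to 1 without the filter and to between 0 and 2 when 1 replicate was left out, and the difference of the genotype effect likewise from 0 to 1 and to between 0 and 2. With 1 replicate left out, 0 to 646 of all genes were called in the first of these and 0 to 859 in the second. The cause of these changes was not tested. Over all genes, KO against WT in CD8 called 21, but 35 with RLE, 72 with DESeq2, 5 with limma-voom, 447 without the filter, 0 with only the compared libraries or the 12 CD4 and CD8 libraries, 1 with Treg pairs summed, 12 with the block and 0 with the T cell receptor scaling; DESeq2 gave Tox no adjusted p. For the difference of the effect, 0 became 130 with DESeq2, 602 without the filter and 1263 with that scaling; without the filter KO against WT in CD4 called 22, and the Treg comparisons 11495 and 11839. The fit without the filter takes in every gene with any count (30423, against 12693 with it), so its numbers have another total. The replicate block changed no member's call (7 of 8 in CD8 against CD4). Of 45 same-numbered pairs 3 had a correlation over 0.1 (-0.34 to 0.307). No pairs of unlike number were set beside them, so this cannot decide whether the numbers pair the libraries. Directions turned for differences that did not pass the test. Runx3 between genotypes in Treg was 0.0029 with limma-voom, 0.0022 with only the compared libraries and 0.0273 with pairs summed, and against CD4 without the filter -0.0894. With the T cell receptor scaling, KO against WT in CD8 was 0.0117 for Cd8a, 0.146 for Cd8b1, 0.1835 for Zbtb7b, 0.206 for Runx3 and 0.1185 for Satb1. In CD4 it was -0.0334 for Cd4, -0.1681 for Cd8a, -0.0242 for Runx3 and -0.1374 for Runx1. In Treg it was -0.158 for Zbtb7b, -0.0468 for Runx1 and -0.1486 for Satb1. The difference of the effect was 0.1798 for Cd8a, 0.4789 for Zbtb7b and 0.2302 for Runx3. Leaving out 1 replicate gave -0.0252 to 0.2741 for Runx1 in that difference and -0.1519 to 0.0442 for Satb1 in CD8 against CD4. In CD4 between genotypes it gave -0.3694 to 1.2365 for Cd8a, -0.2772 to 0.118 for Tox, -0.15 to 0.0571 for Zbtb7b and -0.0215 to 0.2509 for Runx1. In Treg it gave -0.1017 to 0.0572 for Runx3, -0.0351 to 0.1255 for Satb1, -0.0934 to 0.1484 for Zbtb7b, -0.0909 to 0.0654 for Tox, -0.1055 to 0.5385 for Cd4, -0.3474 to 0.0987 for Cd8a and -0.2627 to 0.0021 for Cd8b1. Depth limits Tox and the off-lineage coreceptors most.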
